A study of Mus musculus with 40 samples.

Results

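Adult female mice that received both oral antibiotics and morphine were compared with adult female mice that received neither. The comparison rests on 10 of the 40 libraries of the series, chosen by their labels alone: 5 libraries labelled Abx Morphine and 5 labelled H2O Saline. All mice were wild type C57BL/6J females, a standard inbred laboratory strain, and adults began treatment on postnatal day 55. The combined group received antibiotics by mouth and subcutaneous morphine at 15 mg/kg for 5 days, and the untreated group stayed on water and was injected with saline over the same time. Polyadenylated RNA was sequenced from tissue labelled Brain, with the cell type given as All, and the medial prefrontal cortex stands in the series title. Each group had 5 libraries, and the labels do not say that each came from its own mouse, so that p-values cover only the library-to-library spread. The hour of tissue collection, the interval after the last injection and the antibiotics used are unknown here (not given in the sources used here). Values of the other adult groups (antibiotics with saline, water with morphine) and of adolescents given both from postnatal day 25 are set beside the main comparison.

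Morphine is an agonist of the mu opioid receptor, which couples to inhibitory G proteins and lowers cyclic AMP signalling and neuronal firing. In cortical neurons, firing and calcium entry induce immediate early genes, a set of rapidly transcribed genes that includes Fos, Arc and Egr2, and these in turn precede slower activity-regulated genes such as Bdnf and Nptx2. A separate loop, the circadian clock, runs in most brain cells: the activators Clock and Arntl (Bmal1) drive the repressors Per and Cry and a layer of output transcription factors that includes Dbp, Tef and Hlf. Corticosterone, the stress steroid of mice, acts through the glucocorticoid receptor and induces genes such as Fkbp5.

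Total counts ranged from 8636712 to 12098769 over the 40 libraries, from 9099699 to 10379291 in untreated adults and from 8966829 to 10266210 in adults given both. At this depth 3 counts in a library stood for 0.289 to 0.335 counts-per-million (CPM), and precision given by counts covers counting error only. Replicate 5 of the combined group stood apart on the first principal component of the adult libraries, at 16.6 against a group median of 5.06 and an untreated range of -10.4 to 1.82. Combined replicate 4, at -4.72, lay within the untreated range of that component. The sign of the first component was set so that the combined mean was the higher one. The first component held 10.2% of the variance. On the second component the groups did not overlap. The highest combined library was replicate 1 at 0.545, and the lowest untreated one was replicate 2 at 4.75. Combined replicate 4 was at -3.76 there, outside the untreated range. Markers of excitatory cortical neurons were read in all 10 libraries, with Slc17a7, the vesicular glutamate transporter of these cells, at 1675 to 1799 CPM in untreated adults and 1612 to 1721 CPM in adults given both. Defining markers of the choroid plexus were at or near 0: 7 of 9, Ttr among them, did not pass the filter on low counts, and Ttr had at most 9 counts in any of the 10 libraries.

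Both treatments together changed 212 of 17880 tested genes (1.19%; edgeR quasi-likelihood test, Benjamini-Hochberg adjusted p under 0.05 over all genes tested), of which 116 were higher (0.649%) and 96 lower (0.537%). Clock output factors, clock repressors, 4 glucocorticoid-induced genes and the cold-inducible RNA-binding protein gene Rbm3 were among those that rose. Among those that fell were 19 of 30 immediate early genes, the synaptic genes Bdnf, Nptx2 and Inhba, and the radial glial and astrocytic fatty acid binding protein gene Fabp7. Changes were small: the median was 1.28-fold for genes that rose and 1.37-fold for genes that fell, and 6 rose and 10 fell by at least 2-fold. Over all 17880 genes the median log2 fold change was 0.00376. The 5 and 5 libraries did not overlap for 93 of the genes that rose and 75 of those that fell. These genes were called on the same libraries, so that the separation is a description and no further test. In the background of all tested genes, called ones included, 2.18% had all 5 combined libraries above all untreated ones and 1.91% had them all below. The count of changed genes was 116 without combined replicate 5 and 120 without untreated replicate 2, and 2498 genes had an unadjusted p under 0.05.

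**Figure D1:**
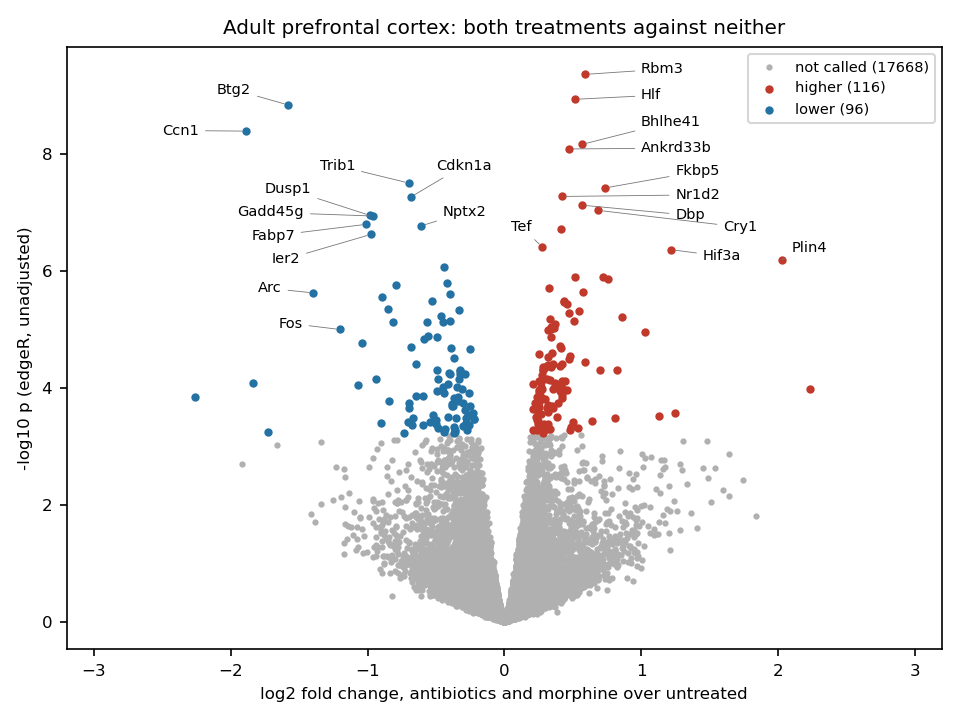
Each point is 1 of 17880 genes in adults, with the log2 fold change of antibiotics and morphine over untreated on the x axis and -log10 of the unadjusted edgeR p on the y axis. Red points (116) were higher and blue points (96) lower at an adjusted p under 0.05, grey points did not pass, and labels mark genes named in the text, such as Rbm3 at 0.59 and Btg2 at -1.58.

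Upstream sequences are shown first for genes of the sets that moved together, because known binding motifs of the clock and of cyclic AMP signalling could be read in them. The 250 bases before each gene's start, from RefSeq on build GRCm38.p6, were searched on both strands for 3 motifs: the E-box CACGTG bound by Clock and Arntl, the D-box TTATGTAA bound by Dbp, Tef and Hlf, and the cyclic AMP response element TGACGTCA. The E-box was found in 6.02% of 32851 promoters, the D-box in 0.819% and the cyclic AMP response element in 1.55%. Of 20 clock genes, 17 were matched to a promoter, and 5 of these held an E-box (Bhlhe41, Ciart, Cry1, Per1 and Tef), against 6.86% of all genes with a promoter. Ciart, a repressor of the clock also called Chrono, held 3 E-boxes, 116, 58 and 44 bases before its start, and Per3 held 2 D-boxes. Of 30 immediate early genes, 23 were matched, and 5 of these also held an E-box (Dusp1, Egr2, Gadd45b, Gadd45g and Klf4), so that the motif was not read in clock genes alone. The cyclic AMP response element lay upstream of 2 immediate early genes, Btg2 and Dusp1, and of 1 clock gene, Hlf. The stretches below run 5′ to 3′ on the strand of the gene, with the motif in capitals. The Dusp1 stretch also holds an E-box, left in lower case, which does not overlap the capitals. A match is only a description of the letters.
Ciart (chr3:95882242-95882369, minus strand): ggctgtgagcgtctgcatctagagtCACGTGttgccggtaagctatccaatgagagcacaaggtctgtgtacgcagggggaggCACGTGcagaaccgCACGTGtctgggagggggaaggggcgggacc
Cry1 (chr10:85185084-85185139, minus strand): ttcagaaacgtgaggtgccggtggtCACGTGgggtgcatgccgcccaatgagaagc
Bhlhe41 (chr6:145865543-145865598, minus strand): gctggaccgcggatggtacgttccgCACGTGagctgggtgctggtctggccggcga
Tef (chr15:81802521-81802576, plus strand): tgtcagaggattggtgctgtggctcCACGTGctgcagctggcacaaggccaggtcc
Per3 (chr4:151044791-151044895, minus strand): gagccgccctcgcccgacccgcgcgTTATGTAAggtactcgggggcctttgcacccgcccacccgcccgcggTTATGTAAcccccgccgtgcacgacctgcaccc
Btg2 (chr1:134079289-134079346, minus strand): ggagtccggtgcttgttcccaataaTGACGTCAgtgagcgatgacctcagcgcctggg
Dusp1 (chr17:26508583-26508640, minus strand): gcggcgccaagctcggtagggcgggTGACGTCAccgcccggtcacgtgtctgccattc

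Clock output genes rose in adults given both treatments. Of 9 tested members 7 rose and 0 fell (Dbp, Tef, Hlf, Bhlhe40, Bhlhe41, Ciart and Nr1d2), against 0.649% of all genes tested that rose. The median log2 fold change was 0.42 against 0.00376 over all genes, and the count was 7 without any 1 of the 10 libraries. This list and those below were chosen with earlier results of these data known, so that their counts are descriptions and no test. Dbp, a transcription factor that binds the D-box, read 104, 87.5, 97.6, 94.8 and 89.3 CPM in untreated replicates 1 to 5 and 133, 138, 146, 161 and 123 CPM in the combined replicates. Every combined library was above every untreated one. Dbp thus rose 1.48-fold, from 94.5 ± 6.48 to 140.3 ± 14.4 CPM (mean ± SD, 5 libraries each), a log2 change of 0.57 ± 0.09 (SE; edgeR adjusted p = 0.000122). Its relative Hlf read 196, 204, 184, 197 and 221 CPM untreated and 243, 297, 297, 308 and 288 CPM with both treatments, again without overlap, and rose 1.43-fold (adjusted p = 8.66e-06). Tef, the remaining member of this factor family in the list, rose 1.21-fold, from 355 ± 14 to 430.4 ± 17.7 CPM (mean ± SD of 5 libraries each; adjusted p = 0.000366). For the repressors Bhlhe41 and Bhlhe40 the rise was 1.48-fold and 1.29-fold (adjusted p = 2.45e-05 and 0.00328). Ciart, whose 3 E-boxes are printed above, stood at 15.8, 13.4, 15, 16.1 and 15.1 CPM untreated and 29.7, 23.4, 25.7, 19.5 and 25.9 CPM with both, and rose 1.65-fold (adjusted p = 0.000932). Nr1d2, which encodes the nuclear receptor REV-ERB beta, rose 1.34-fold (adjusted p = 9.75e-05), while its paralogue Nr1d1 had a log2 change of -0.05 ± 0.06 (SE; adjusted p = 0.731; 95% interval -0.17 to 0.06). Nfil3, a repressor at the D-box, read 5.31 to 8.26 CPM untreated and 3.54 to 5.55 CPM with both, at -0.48 ± 0.18 (SE; adjusted p = 0.189). Dbp overlaps Sphk2 and Bhlhe41 overlaps Gm43909 on the opposite strand. With the strand setting of the counts not given, reads of such pairs cannot be told apart, and all 4 genes rose. The same holds for the opposite-strand pairs Tef and Gm17597, Arntl and Gm45355, Rora and Gm15511, Dusp1 and Ergic1, Bdnf and Gm45346, Plin4 and Hdgfl2, Enpp2 and Gm26684, Oprm1 and Ipcef1, and Penk and A830012C17Rik. In each of these pairs the second gene did not pass.

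The repressor limb moved the same way. Of 5 tested repressor genes, 3 rose (Per2, Per3 and Cry1) and 0 fell, against 0.649% of all genes tested that rose. Their median log2 fold change was 0.41. Cry1, a cryptochrome that shuts off Clock and Arntl, read 10.6, 16, 16.2, 11.2 and 14.1 CPM in untreated libraries and 22, 20.9, 23.1, 22.3 and 21.7 CPM with both treatments. The combined values were closely grouped and lay above all untreated values. This rise was 1.61-fold (log2 0.69 ± 0.11, SE; adjusted p = 0.000138). The period gene Per2 read 44.9, 32.1, 31.6, 45.7 and 54 CPM untreated and 63.9, 65.6, 70.2, 67 and 70.4 CPM with both, with no overlap, and rose 1.62-fold (adjusted p = 0.0103). Per3 rose 1.33-fold, from 58.2 ± 9.58 to 77.6 ± 10.8 CPM (mean ± SD of 5 libraries each; adjusted p = 0.00593), and its ranges overlapped. Per1 stood at 95 to 133 CPM untreated and 136 to 177 CPM with both, without overlap, but did not pass over all genes (0.40 ± 0.12, SE; adjusted p = 0.0739), and Cry2 was at 0.13 ± 0.06 (adjusted p = 0.337). Per2 lost its call without untreated replicate 2 or 3 and Per3 without untreated replicate 2 or combined replicate 5, with adjusted p up to 0.0524 and 0.0637, so that the count of repressors fell to 1 without untreated replicate 2 and was 2 without untreated replicate 3 or combined replicate 5. Per3 also lost its call in a fit of only the 2 groups, at a log2 fold change of 0.41.

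The activator Arntl went the other way. It read 33.6, 32, 32.1, 28.6 and 34 CPM untreated and 23.8, 27.9, 24.2, 25.9 and 26.4 CPM with both treatments, all 5 below every untreated library, and fell by 0.32 ± 0.07 (log2, SE) (adjusted p = 0.0104). Its partner Clock was at -0.00 ± 0.07 (SE; adjusted p = 0.988; 95% interval -0.15 to 0.14) and Npas2, which can take the place of Clock in forebrain, at -0.13 ± 0.08 (adjusted p = 0.473). Rora, a nuclear receptor that activates Arntl transcription, rose 1.4-fold (adjusted p = 0.0457). That call was lost when any 1 of 8 libraries was left out, those other than untreated replicate 1 and combined replicate 1, with adjusted p up to 0.126. Of the 6 activators tested, 1 rose and 1 fell, against 0.649% and 0.537% of all genes tested.

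**Figure D2:**
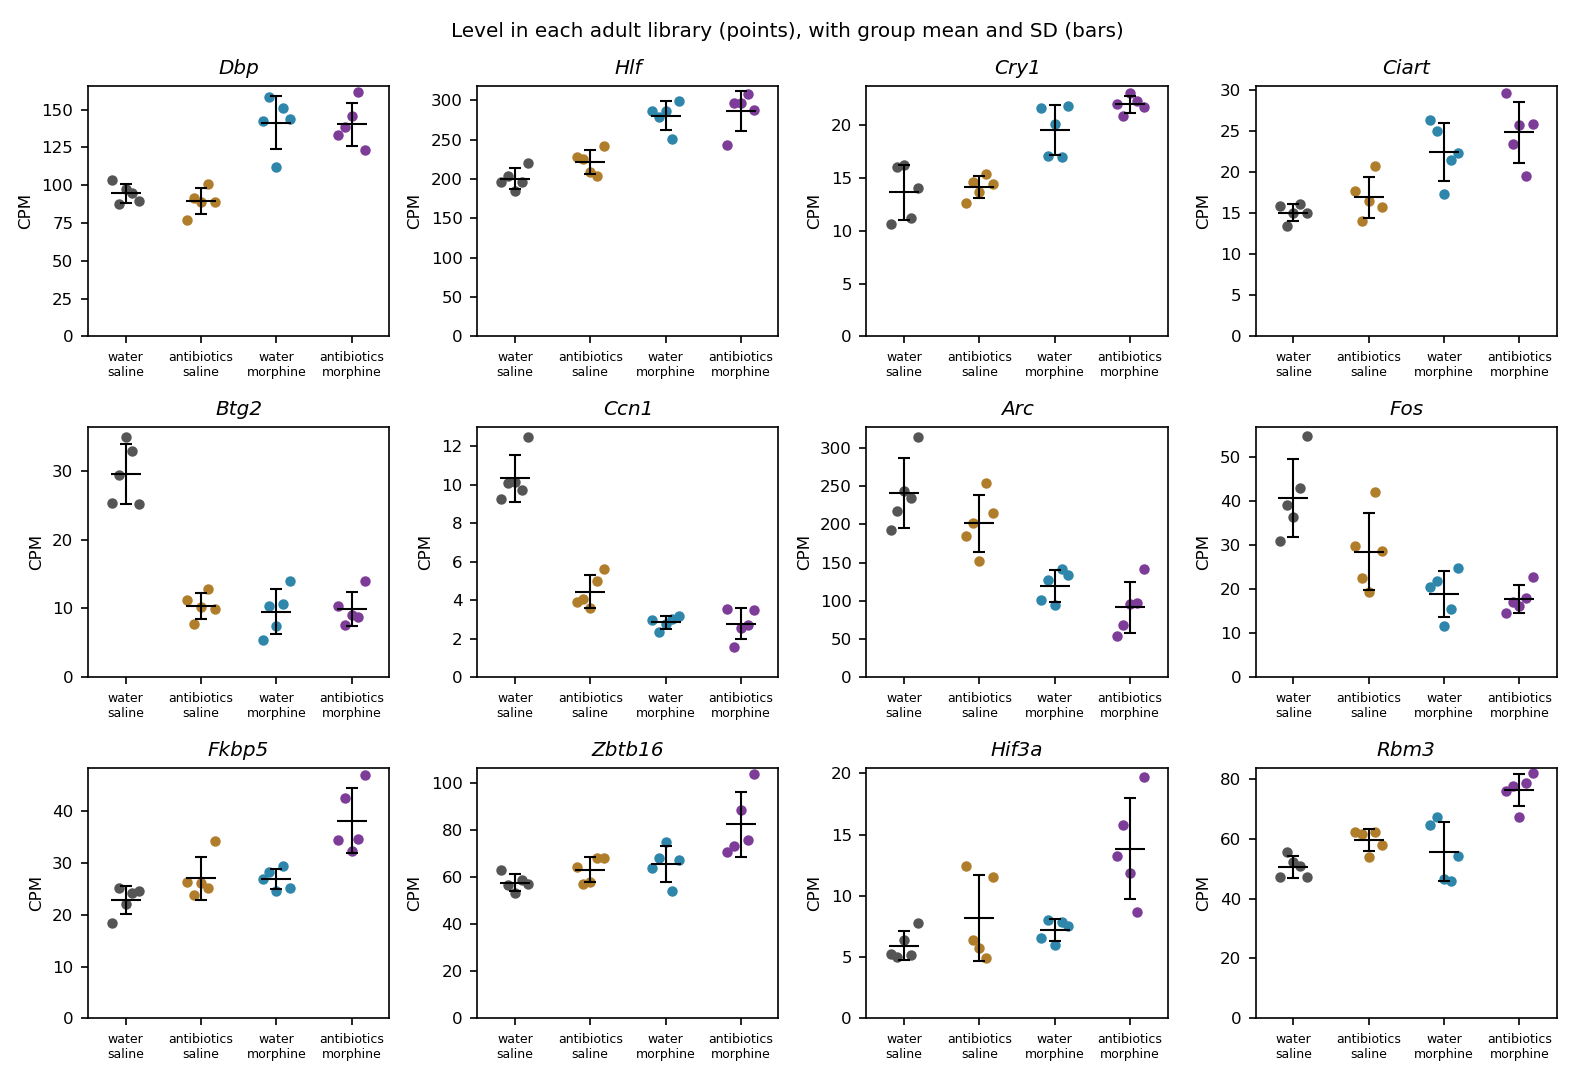
CPM of 12 genes in each adult library (points; 5 per group), with the group mean and SD as bars, for water with saline, antibiotics with saline, water with morphine and both. In the top row the clock genes are higher in both morphine groups, in the middle row Btg2 is lower in every treated group and Fos lowest with morphine, and in the bottom row Fkbp5 and Rbm3 have their highest group means, 38.2 and 76.2 CPM, with both treatments.

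Immediate early genes fell as a group. Of 30 tested members 19 fell and 0 rose, against 0.537% of all genes tested that fell, and 28 of the 30 fold changes were negative, with a median log2 fold change of -0.61. The count of members that fell lay between 15 and 21 when each of the 10 libraries was left out in turn. Btg2, an antiproliferative gene induced by neuronal activity, read 25.3, 29.4, 34.9, 32.8 and 25.1 CPM in untreated libraries and 10.3, 7.57, 8.99, 8.8 and 13.9 CPM with both treatments. The groups were far apart, with the highest combined library well below the lowest untreated one. Btg2 fell by 1.58 ± 0.20 (log2, SE), from 29.5 ± 4.37 to 9.91 ± 2.44 CPM (mean ± SD of 5 libraries each; edgeR adjusted p = 8.66e-06). Ccn1, a secreted matricellular protein gene, read 9.28, 10.1, 10.1, 9.74 and 12.5 CPM untreated and 3.54, 1.6, 2.55, 2.74 and 3.51 CPM with both, and was 3.71-fold lower (adjusted p = 1.82e-05).

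The classical activity markers Fos and Arc were lower too. Arc, which encodes a synaptic protein that removes AMPA receptors, read 193, 218, 244, 235 and 314 CPM in untreated libraries and 54.2, 68.6, 96, 96.9 and 142 CPM with both treatments. In both groups replicate 5 was the highest, and the groups did not overlap. Arc fell by 1.40 ± 0.24 (log2, SE), a 2.63-fold difference (adjusted p = 0.00142). Fos, a subunit of the AP-1 transcription factor, read 31.1, 39.1, 36.3, 42.9 and 54.7 CPM untreated and 14.6, 17.1, 16.1, 18.1 and 22.9 CPM with both. It was 2.3-fold lower without overlap (log2 -1.20 ± 0.23, SE; adjusted p = 0.00335). Other AP-1 subunits were lower as well, Jun 1.44-fold, Junb 1.62-fold, Fosb 1.44-fold and Fosl2 1.51-fold (adjusted p = 0.00172, 0.0256, 0.0312 and 0.0404).

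Negative regulators of kinase signalling were among the members that fell. Dusp1, the MAP kinase phosphatase whose cyclic AMP response element is printed above, read 39.3, 57.7, 57.9, 53.2 and 68 CPM untreated and 22.8, 22.3, 28.4, 26.2 and 40.3 CPM with both treatments. It was 1.98-fold lower (adjusted p = 0.000147), although combined replicate 5 lay just above untreated replicate 1. Dusp6, a phosphatase of ERK, was 1.38-fold lower and Trib1, a pseudokinase, 1.62-fold (adjusted p = 0.00257 and 8.04e-05). Sik1, a salt-inducible kinase that restrains cyclic AMP target genes, was 1.86-fold lower (adjusted p = 0.00154). The stress sensor Gadd45g, the early response gene Ier2 and the nuclear receptor Nr4a1 were 1.95-, 1.96- and 1.8-fold lower (adjusted p = 0.000147, 0.000236 and 0.00217). Egr2, Csrnp1, Gadd45b and Klf10 completed the 19, with log2 fold changes of -1.07, -0.65, -0.59 and -0.39.

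The other 11 immediate early genes did not pass. At an unadjusted p under 0.05, 27 of all 30 members were lower and 0 higher, and DESeq2 called 21 and limma-voom 22 as lower. Egr1, a zinc finger factor often read as an activity marker, stood at 286 to 436 CPM untreated and 213 to 326 CPM with both, a log2 change of -0.30 ± 0.20 (SE; adjusted p = 0.541; 95% interval -0.71 to 0.11). Npas4, a factor specific to neuronal activity, was at -0.96 ± 0.34 (SE; adjusted p = 0.176), with 4 combined libraries between 16.8 and 19.5 CPM, all below the untreated range of 38.2 to 63 CPM, and replicate 5 at 43.8 CPM. Homer1 and Ier5 were at 0.02 ± 0.11 and 0.01 ± 0.11 (SE). The groups did not overlap for 19 members of the list, all lower. Over all genes tested, 1.91% had every combined library below every untreated one. Nr4a2 and Egr3 were 2 of these 19 members without a call (adjusted p = 0.0593 and 0.146), and Dusp1 and Fosb were called with overlap.

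Of 13 activity-regulated synaptic genes 3 fell (Nptx2, Inhba and Bdnf) and 0 rose, against 0.537% of all genes tested that fell. The median log2 fold change was -0.15. At an unadjusted p under 0.05, 6 were lower and 0 higher, and DESeq2 and limma-voom called 5 each as lower. Nptx2, a pentraxin secreted by excitatory neurons that gathers AMPA receptors on interneurons, read 69.9, 70.6, 71.1, 83.8 and 71 CPM in untreated libraries and 55.7, 44.3, 42, 46.3 and 52.3 CPM with both treatments. All combined values were below all untreated ones, and Nptx2 fell by 0.61 ± 0.10 (log2, SE) (adjusted p = 0.000189). Bdnf, the gene of brain-derived neurotrophic factor, read 40.5, 41.2, 33.4, 34.9 and 36.8 CPM untreated and 31.5, 24.9, 26.2, 28.5 and 25.6 CPM with both, also without overlap. Bdnf fell by 0.45 ± 0.11 (log2, SE), a 1.37-fold difference (adjusted p = 0.0157), and the call was lost without untreated replicate 2 (adjusted p = 0.0517). Inhba, a subunit of activin, was 1.75-fold lower, from 14.1 ± 2.22 to 8.03 ± 1.93 CPM (mean ± SD of 5 libraries each; adjusted p = 0.00278). The neuropeptide precursor Vgf was at -0.16 ± 0.05 (SE; adjusted p = 0.123) and Scg2 at -0.14 ± 0.07 (adjusted p = 0.308).

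Among glucocorticoid targets, 4 of 23 tested members rose and 1 fell, against 0.649% and 0.537% of all genes tested. The median log2 fold change was 0.07, with 15 positive and 8 negative values. At an unadjusted p under 0.05, 10 members were higher and 5 lower, DESeq2 called 4 higher and 3 lower, and limma-voom 8 higher and 2 lower. Fkbp5, a co-chaperone that dampens the glucocorticoid receptor, read 18.5, 25.2, 22.1, 24.2 and 24.6 CPM in untreated libraries and 34.4, 42.6, 32.4, 34.7 and 47 CPM with both treatments. Every combined library lay above every untreated one, and Fkbp5 rose 1.67-fold (log2 0.74 ± 0.11, SE; adjusted p = 8.52e-05). Plin4, a lipid droplet coat protein gene, read 1.92, 0.806, 1.74, 2.08 and 2.82 CPM untreated and 4.5, 6.93, 7.56, 6.45 and 12.9 CPM with both. This was a 4.09-fold rise at a low level, with combined replicate 5 the highest (log2 2.03 ± 0.34, SE; adjusted p = 0.000546). Plin4 overlaps the opposite-strand gene Hdgfl2, at a mean of 66.3 CPM over the 10 libraries and a log2 change of 0.00419 (adjusted p = 0.988), so its low values are uncertain. Hif3a, a hypoxia-inducible factor subunit, stood at 5.25, 5.04, 6.38, 5.14 and 7.8 CPM untreated and 13.3, 15.8, 11.8, 8.7 and 19.7 CPM with both, and rose 2.33-fold (adjusted p = 0.000388). The zinc finger factor Zbtb16 rose 1.43-fold, from 57.7 ± 3.62 to 82.6 ± 13.8 CPM (mean ± SD of 5 libraries each; adjusted p = 0.000932). For each of these 4 genes the groups did not overlap. The calls of Fkbp5, Plin4 and Hif3a held without any 1 library, with Plin4 between 1.76 and 2.22 on the log2 scale. In Fkbp5, Plin4, Hif3a and Zbtb16 alike the highest value was that of combined replicate 5, the library that stood apart on the first principal component.

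Cdkn1a, the gene of the cell cycle inhibitor p21, is in the same list and fell by 0.68 ± 0.11 (log2, SE), from 27.4 ± 0.883 to 17.1 ± 3.34 CPM (mean ± SD of 5 libraries each; adjusted p = 9.75e-05). It overlaps AC167363.2 on the opposite strand, which fell too, so its reads are uncertain. Among members that did not pass, the leucine zipper gene Tsc22d3 (GILZ) was at 0.32 ± 0.10 and the circadian and steroid responsive factor Klf9 at 0.22 ± 0.07 (SE; adjusted p = 0.0922 and 0.122). The kinase gene Sgk1 was at 0.02 ± 0.12 and the receptor gene Nr3c1 at 0.03 ± 0.07 (adjusted p = 0.968 and 0.912), with 95% intervals of -0.22 to 0.26 and -0.12 to 0.17.

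Rbm3 had the smallest p of all genes tested. It encodes an RNA-binding protein that is induced by mild cooling and supports translation at synapses. Rbm3 read 47.1, 55.5, 52.2, 50.9 and 47.1 CPM in untreated libraries and 76, 77.5, 67.4, 78.5 and 81.8 CPM with both treatments. The groups were separated by more than 10 CPM, and Rbm3 rose 1.51-fold (log2 0.59 ± 0.08, SE; adjusted p = 7.78e-06). The antisense gene Rbm3os, which overlaps it, rose 1.39-fold (adjusted p = 0.00755), and reads of the pair cannot be told apart without the strand setting. Cirbp, the related cold-inducible gene, read 51.8, 57, 52.4, 44.8 and 52.2 CPM untreated and 62.8, 68.2, 62.4, 65.6 and 57.3 CPM with both. Its groups did not overlap, but its log2 fold change of 0.29 ± 0.10 (SE) did not pass (adjusted p = 0.128).

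Genes outside the lists with the smallest p were Ankrd33b and Wipf3 among those that rose and Stk40 and Fjx1 among those that fell. Ankrd33b, an ankyrin repeat gene, rose 1.39-fold, from 127 ± 8.14 to 176 ± 9.66 CPM (mean ± SD of 5 libraries each; adjusted p = 2.45e-05). Wipf3, an actin regulator of the WASP-interacting family, rose 1.33-fold (adjusted p = 0.000205), and its opposite-strand neighbour 9130019P16Rik rose with it, so that Wipf3 is uncertain. Stk40, a pseudokinase gene, was 1.36-fold lower and Fjx1, a Golgi kinase related to four-jointed, 1.34-fold lower (adjusted p = 0.000693 and 0.00111). Groups did not overlap for any of these 4.

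Signalling, chaperone and metabolic lists held at most 1 gene each called by edgeR, where 1.19% of all genes tested were called (0.649% higher and 0.537% lower). Of 7 opioid receptor and peptide genes 0 passed: Oprm1, the mu receptor, stood at 4.54, 4.53, 3.58, 6.46 and 5.09 CPM untreated and 3.11, 5.12, 3.68, 4.11 and 4.19 CPM with both. These ranges overlapped (log2 -0.26 ± 0.21, SE; adjusted p = 0.633; 95% interval -0.68 to 0.17). The enkephalin precursor Penk was at -0.09 ± 0.15 (SE; adjusted p = 0.862; 95% interval -0.40 to 0.23). Of 20 genes of cyclic AMP and protein kinase A signalling 1 passed, the adenylyl cyclase Adcy9, which rose 1.36-fold from 76.2 ± 5.21 to 103 ± 11.7 CPM (mean ± SD of 5 libraries each; adjusted p = 0.00172). Of these 20, 2 were higher and 4 lower at an unadjusted p under 0.05, and DESeq2 and limma-voom each called 1 higher and 1 lower. None of 10 AMPA and NMDA receptor subunits and none of 12 GABA-A receptor subunits passed, with median log2 fold changes of 0.03 and 0.09. In the opioid list 2 genes were lower at an unadjusted p under 0.05, among AMPA and NMDA subunits 1 was higher, and among GABA-A subunits 1 was higher and 1 lower. DESeq2 and limma-voom called 0 in each of these 3 lists, as edgeR did.

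Calr, the gene of the calcium-binding endoplasmic reticulum chaperone calreticulin, read 279, 274, 284, 294 and 273 CPM in untreated libraries and 221, 225, 220.1, 237 and 212 CPM with both treatments. The groups did not overlap, and Calr was 1.26-fold lower (adjusted p = 0.0022), the 1 of 18 genes of its list that passed. Over all genes tested 0.537% fell, a share to set beside each count below. Of the 18, 15 had negative fold changes, with a median of -0.15, 6 were lower and 0 higher at an unadjusted p under 0.05, and DESeq2 and limma-voom called 2 each as lower. Their summed level did not overlap between the groups, at 1831 to 1943 CPM untreated and 1672 to 1778 CPM with both. Hspa5, the central chaperone of that compartment, was at -0.19 ± 0.07 (SE; adjusted p = 0.212). Of 18 heat shock genes 1 fell, Dnajb5, 1.21-fold (adjusted p = 0.0395), a call lost without any 1 of 8 libraries, all but untreated replicates 2 and 3, with adjusted p up to 0.114. Of these 18, 16 had negative fold changes, 6 were lower and 0 higher at an unadjusted p under 0.05, and DESeq2 called 1 and limma-voom 2 as lower. The summed heat shock level was 4722 to 5060.3 CPM untreated and 4464 to 4656 CPM with both, without overlap. Of 22 genes of cholesterol synthesis 0 passed, 19 had negative fold changes, and the median was -0.14. Of these, 7 were lower and 1 higher at an unadjusted p under 0.05, and DESeq2 called 2 and limma-voom 4 as lower. Of 77 cytosolic ribosomal protein genes 1 passed, Rpl13a, read at 2.19 to 5.02 CPM untreated and 1.39 to 2.74 CPM with both (log2 -0.90 ± 0.24, SE; adjusted p = 0.0389). Its call was lost without any 1 of 7 libraries, all but untreated replicate 4 and combined replicates 1 and 4 (adjusted p up to 0.151). Rpl13a also lost it with the replicate number as a block, and it overlaps other annotated genes on its own strand. Of the 77 ribosomal protein genes, 75 had negative fold changes, with a median of -0.12, 22 were lower and 0 higher at an unadjusted p under 0.05, and DESeq2 called 0 and limma-voom 2 as lower. Their summed levels overlapped, at 7786 to 9705 CPM untreated and 7146 to 8765 CPM with both. Of 90 nuclear genes of the respiratory chain 0 passed, with a median of -0.12, and of 23 mitochondrially encoded genes 0 passed, at 0.01. At an unadjusted p under 0.05, 19 of the 90 were lower and 1 higher, and 1 of the 23 was lower and 1 higher. Of 18 tested inflammation and interferon genes 0 passed, with a median of -0.08 and 3 lower at an unadjusted p under 0.05. A further 7, including Il1b, Tnf and Ccl2, did not pass the filter on low counts, and Il6 had 0 counts in all 10 libraries. Of 11 genes of the perineuronal net and matrix 0 passed, at a median of -0.04, with 1 higher and 2 lower at an unadjusted p under 0.05. In the respiratory, mitochondrial, inflammation and matrix lists DESeq2 called 0 genes, and limma-voom called 1 matrix gene as higher and 0 others.

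**Figure D3:**
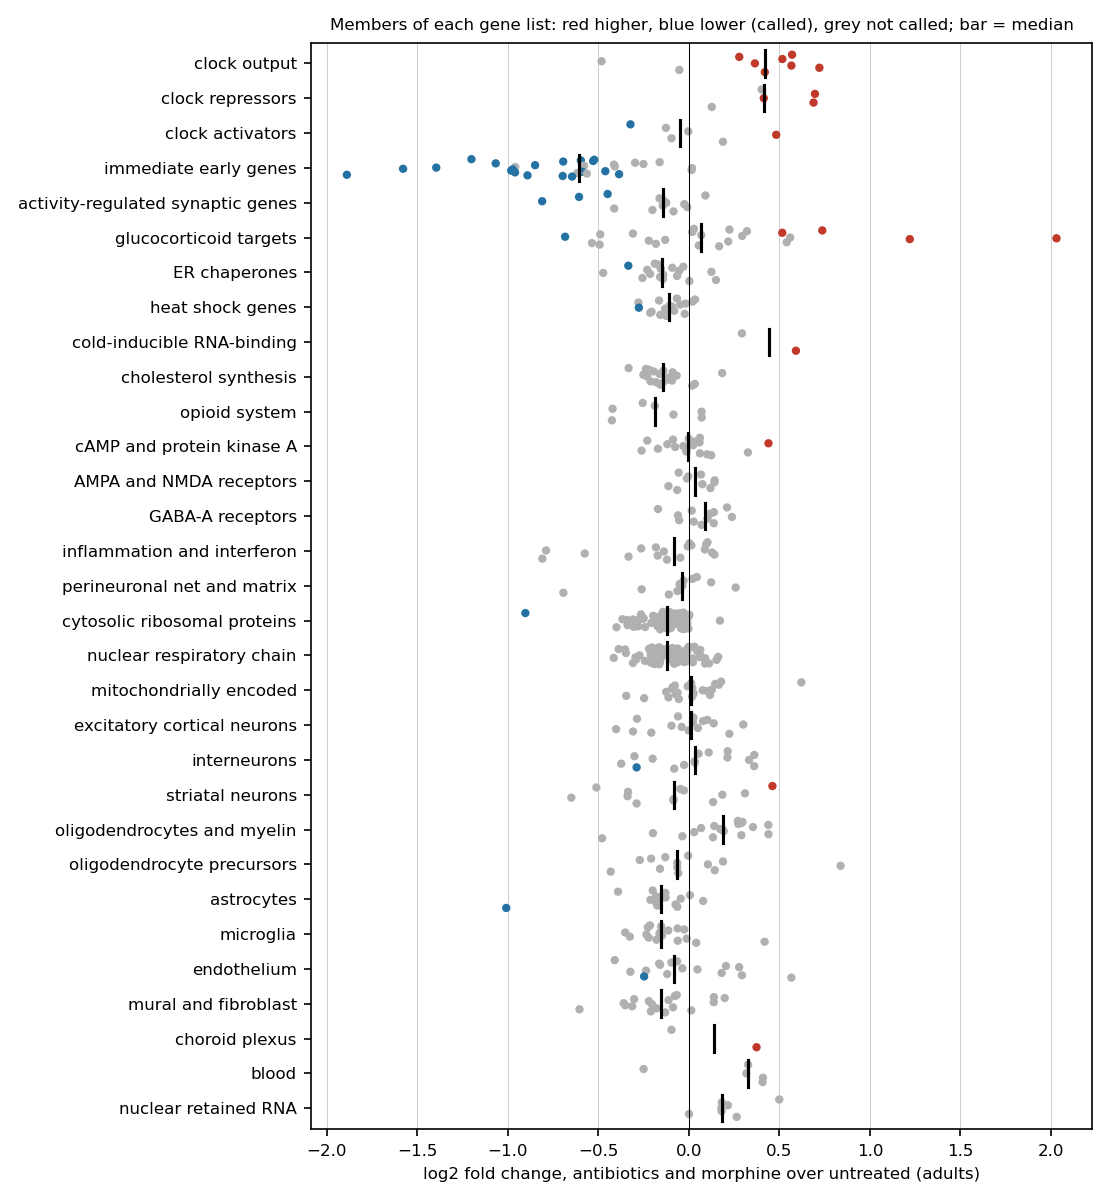
Each point is a tested gene, placed by its log2 fold change in adults given antibiotics and morphine over untreated adults, with 1 row per gene list; red and blue points passed the test, grey ones did not, and bars are list medians. The clock rows lie to the right, with medians of 0.42 for output genes and 0.41 for repressors, and immediate early genes to the left, with a median of -0.61.

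At most 1 marker of each cell type list passed in edgeR, where 1.19% of all genes tested passed (0.649% higher and 0.537% lower). In bulk tissue, fewer cells of a type and less RNA per cell cannot be told apart. Of 16 excitatory neuron markers 0 passed in edgeR, DESeq2 or limma-voom, with 2 higher and 1 lower at an unadjusted p under 0.05, and their summed level was 6723 to 7768 CPM untreated and 6862 to 7580.2 CPM with both. Of 15 interneuron markers 1 fell, the neuropeptide gene Cck, 1.22-fold (adjusted p = 0.0114), a call lost without combined replicate 5 (adjusted p = 0.0849). Cck is also expressed by excitatory cortical neurons. Of the 15 interneuron markers, 9 had positive and 6 negative fold changes, and 4 were higher and 2 lower at an unadjusted p under 0.05. For this list DESeq2 called 1 higher and 1 lower, and limma-voom 1 higher and 2 lower. Of 13 tested markers of striatal neurons 1 rose, Ppp1r1b, which encodes the protein phosphatase inhibitor DARPP-32. Ppp1r1b read 41.5, 47.2, 45, 52.2 and 48.3 CPM untreated and 48.6, 71.7, 66.4, 64.2 and 71.4 CPM with both, with overlap through combined replicate 1, and rose 1.38-fold (adjusted p = 0.00184). It overlaps 1700003D09Rik, which rose too. Of the 13 striatal markers, 9 had negative and 4 positive fold changes, with a median of -0.09. At an unadjusted p under 0.05, 3 were higher and 4 lower. The summed striatal level, which includes Ppp1r1b itself, was 408 to 431 CPM untreated and 423 to 467 CPM with both. The dopamine receptor gene Drd1, a defining marker of striatal neurons, was at 7.55 to 12.4 CPM and 4.89 to 8.85 CPM (log2 -0.51 ± 0.21, SE; adjusted p = 0.243). The part of tissue make-up in the change of Ppp1r1b was not tested.

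Among glial lists, Fabp7 was the 1 of 16 astrocyte markers that passed, where 1.19% of all genes tested did. Fabp7, a fatty acid binding protein of radial glia and astrocytes, read 15.5, 16.2, 14.4, 12.1 and 11.9 CPM in untreated libraries and 8.04, 6.5, 5.11, 7.82 and 7.47 CPM with both treatments. It was 2.01-fold lower without overlap (log2 -1.01 ± 0.17, SE; adjusted p = 0.000189). Of the 16, 14 had negative fold changes, with a median of -0.16, and DESeq2 and limma-voom called 2 each as lower. The summed level of the whole astrocyte list overlapped, at 4286 to 5277 CPM untreated and 4346 to 4869 CPM with both. Of 18 microglial markers 0 passed and 16 had negative fold changes, with a median of -0.15, and 13 markers of oligodendrocyte precursors and 18 of mural cells and fibroblasts gave 0 as well. At an unadjusted p under 0.05 these 3 lists had 2, 1 and 2 lower members and 1, 1 and 0 higher ones, and 1 microglial marker was called as lower by limma-voom. Bsg, the gene of basigin on brain endothelium and other cells, was the 1 of 16 endothelial markers that passed in edgeR, 1.19-fold lower (adjusted p = 0.00593). Of these 16, 3 were higher and 4 lower at an unadjusted p under 0.05, and DESeq2 and limma-voom each called 1 higher and 1 lower. Enpp2, the autotaxin gene, was the 1 choroid plexus marker that passed and rose 1.3-fold, from 147 ± 11.1 to 191 ± 12 CPM (mean ± SD of 5 libraries each; adjusted p = 0.00291), where Kl, the other tested marker of that list, was at -0.10 ± 0.27 (SE; adjusted p = 0.917) and Ttr was near 0. Enpp2 is also expressed by oligodendrocytes.

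Myelin genes varied with single libraries. Of 18 markers of oligodendrocytes and myelin 0 passed and 15 had positive fold changes, with a median of 0.19. Their summed level was 1208, 1263, 1363, 1322 and 1285 CPM in untreated replicates 1 to 5 and 1051, 1904, 1603, 1609.7 and 1537 CPM in the combined replicates. Combined replicate 1 was thus below, and the other 4 combined libraries above, the whole untreated range. Mbp, the myelin basic protein gene, read 369.9, 712, 610.0, 606 and 569.6 CPM in the combined replicates and 434 to 508 CPM untreated (log2 0.27 ± 0.16, SE; adjusted p = 0.476; 95% interval -0.06 to 0.60). Without combined replicate 1 the median of the list was 0.28 and 1 member passed, while over all libraries 4 were higher at an unadjusted p under 0.05 and DESeq2 and limma-voom called 1 each. Of 5 tested blood genes and 7 nuclear retained RNAs 0 passed with any of the 3 tools, with medians of 0.33 and 0.18 and 2 and 1 members higher at an unadjusted p under 0.05. Summed levels of nuclear retained RNA were 4583 to 8466 CPM untreated and 5151 to 9565 CPM with both, and those of blood genes 37.8 to 60.8 and 56 to 74.4 CPM.

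**Figure D4:**
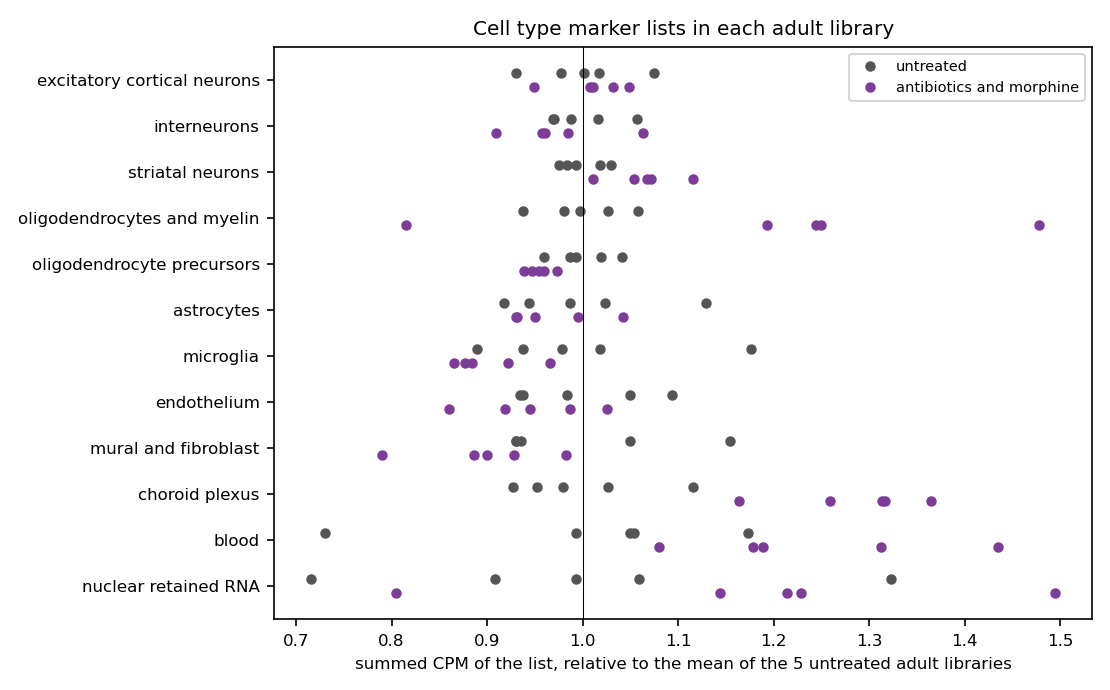
Summed CPM of each marker list in each adult library, divided by the mean of the 5 untreated libraries, for untreated adults (grey) and adults given antibiotics and morphine (purple). Excitatory neuron, interneuron and astrocyte sums overlap between the groups, choroid plexus sums, made up almost wholly of Enpp2, do not, and 1 combined library is below and 4 are above the untreated range for myelin.

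The single treatments were read in adults against the same 5 untreated libraries, so that the 3 comparisons are not independent and are given side by side only. Morphine alone changed 85 genes (0.475%), 47 higher (0.263%) and 38 lower (0.213%), and antibiotics alone changed 9 (0.0503%), 2 higher (0.0112%) and 7 lower (0.0391%). The count for morphine fell to between 30 and 51 without untreated replicates 2, 3, 4 or 5 or water-morphine replicates 1, 3 or 5, and was 153 without water-morphine replicate 4. The count for antibiotics fell to between 2 and 4 without untreated replicates 2, 3 or 4 or antibiotics-saline replicates 1, 3 or 5, and was 16 without untreated replicate 1 and 46 without antibiotics-saline replicate 4. With morphine alone 7 of 9 clock output genes and 2 of 5 clock repressors rose and 17 of 30 immediate early genes fell. With antibiotics alone 0 clock genes passed and 3 immediate early genes fell (Btg2, Gadd45g and Ccn1), with 1803 genes of the table at an unadjusted p under 0.05. Tob1, an antiproliferative relative of Btg2, was lower with antibiotics alone and with both, at -0.41 ± 0.08 and -0.35 ± 0.08 (log2, SE; adjusted p = 0.0227 and 0.0157). Rgs2, a regulator of G protein signalling, was lower with antibiotics alone at -0.37 ± 0.08 and did not pass with both, at -0.15 ± 0.08 (adjusted p = 0.0324 and 0.393). Frmd6, a FERM domain gene, was 1 of the 2 that rose with antibiotics alone, at 0.40 ± 0.08, and was at 0.22 ± 0.08 with both (adjusted p = 0.0263 and 0.191).

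Dbp averaged 94.5 ± 6.48 CPM untreated, 89.5 ± 8.46 CPM with antibiotics, 141 ± 17.7 CPM with morphine and 140.3 ± 14.4 CPM with both (SD, n = 5 each). The levels with antibiotics alone overlapped the untreated ones, and those with morphine alone overlapped the combined ones. Hlf gave 200.3, 221, 281 and 286 CPM and Cry1 13.6, 14.1, 19.5 and 22 CPM in the same order. Arc averaged 241 ± 45.5, 202 ± 37.4, 119 ± 20.9 and 91.6 ± 33.6 CPM (SD, n = 5 each), with log2 fold changes of -0.26 for antibiotics and -1.01 for morphine alone (adjusted p = 0.768 and 0.0449). Fos averaged 40.8, 28.5, 18.9 and 17.7 CPM. In these genes the combined mean lay closer to that of morphine alone than to the untreated one.

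Btg2 had another pattern. It averaged 29.5 ± 4.37 CPM untreated, 10.4 ± 1.87 CPM with antibiotics, 9.56 ± 3.27 CPM with morphine and 9.91 ± 2.44 CPM with both (SD, n = 5 each). All libraries of the 3 treated groups were below all untreated ones, with log2 fold changes of -1.51, -1.62 and -1.58, each of which passed (adjusted p = 6.78e-05, 1.51e-05 and 8.66e-06). Gadd45g averaged 13.8, 7.38, 6.78 and 7.11 CPM, and Ccn1 10.3, 4.45, 2.86 and 2.79 CPM.

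A further set of genes was called with both treatments and with neither alone. Fkbp5 averaged 22.9 ± 2.74, 27.1 ± 4.14, 26.9 ± 1.97 and 38.2 ± 6.27 CPM (SD, n = 5 each) in the order untreated, antibiotics, morphine and both. Its log2 fold changes were 0.24 ± 0.12, 0.23 ± 0.12 and 0.74 ± 0.11 (SE; adjusted p = 0.474, 0.449 and 8.52e-05). Hif3a averaged 5.92, 8.22, 7.21 and 13.9 CPM, Plin4 1.87, 3.36, 2.76 and 7.67 CPM, and Rbm3 50.6, 59.6, 55.7 and 76.2 CPM. Fabp7 gave 14, 11.8, 11.2 and 6.99 CPM and Bdnf 37.4, 35, 33.3 and 27.4 CPM. The threshold alone does not show that the combined change of these genes differed from the single ones, and the difference was therefore tested.

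The departure of the combined log2 change from the sum of the single changes passed for 0 of 17880 genes in edgeR (0%), with 1214 at an unadjusted p under 0.05, 1 gene in DESeq2 and 1 in limma-voom. In edgeR 1 gene passed without water-morphine replicate 5. Btg2 had the smallest p, with a departure of 1.55 ± 0.29 (SE; adjusted p = 0.104), which means that the combined level was higher than the sum of the single falls would give. For Fkbp5 the departure was 0.26 ± 0.16 (SE; 95% interval -0.06 to 0.58), for Rbm3 0.21 ± 0.11 (-0.01 to 0.43), for Hif3a 0.45 ± 0.29 (-0.14 to 1.05) and for Plin4 0.61 ± 0.50 (-0.40 to 1.63). For Dbp it was 0.07 ± 0.13 (-0.18 to 0.32) and for Arc -0.13 ± 0.34 (-0.82 to 0.56). These intervals include 0, and those of Hif3a and Plin4 reach beyond 1 on the log2 scale.

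The same pair of treatments was read in adolescents on separate libraries, 5 with both and 5 untreated. There 1240 genes passed (6.94%), of which 596 were higher (3.33%) and 644 lower (3.6%). This number was 791 without adolescent combined replicate 3, 810 without combined replicate 4 and 1822 without combined replicate 5. In fits of only the compared groups, 521 genes passed in adolescents and 458 in adults. Of the 212 genes changed in adults, 206 had a fold change of the same sign in adolescents, and 137 passed there in the same direction and 0 in the opposite one. The share of all tested genes with the same sign at both ages was not computed. Of 9 clock output genes 7 rose in adolescents, of 5 repressors 5 rose, and of 30 immediate early genes 16 fell. Dbp went from 81.1 ± 12.7 to 126 ± 10.9 CPM in adolescents (SD, n = 5 each; adjusted p = 5.11e-06) and Btg2 from 37.8 ± 6.64 to 9.75 ± 2.86 CPM (adjusted p = 4.4e-08). Fkbp5 went from 22.5 ± 2.94 to 41.7 ± 7.57 CPM (adjusted p = 5.07e-07), Rbm3 from 54.9 ± 3.66 to 82.3 ± 7.17 CPM (adjusted p = 6.63e-07) and Fabp7 from 17 ± 4.69 to 7.01 ± 1.26 CPM (adjusted p = 4.88e-07). Bdnf fell by 0.39 ± 0.11 (log2, SE) at that age (adjusted p = 0.0197).

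The difference between the ages was tested for each gene as the adult change minus the adolescent change. It passed for 0 of 17880 genes in edgeR (0%), 0 in DESeq2 and 0 in limma-voom, with 1106 at an unadjusted p under 0.05 in edgeR. The larger count in adolescents is therefore not shown to be a difference of any 1 gene. Plin4 rose 4.09-fold in adults and had a log2 change of 0.58 ± 0.36 (SE; adjusted p = 0.358) in adolescents, and the difference was 1.46 ± 0.50 (SE; adjusted p = 0.705). For Btg2 the difference was 0.38 ± 0.28 (SE; 95% interval -0.18 to 0.94), for Dbp -0.07 ± 0.13 (-0.32 to 0.19), for Fkbp5 -0.15 ± 0.16 (-0.47 to 0.17) and for Rbm3 0.01 ± 0.11 (-0.21 to 0.22). Fosl2, which fell in adults by 0.60 ± 0.15 (log2, SE), was at 0.02 ± 0.16 in adolescents, and Sik1 was at -0.89 ± 0.16 and -0.37 ± 0.17, and neither difference passed (adjusted p = 0.731 and 0.775).

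**Figure D5:**
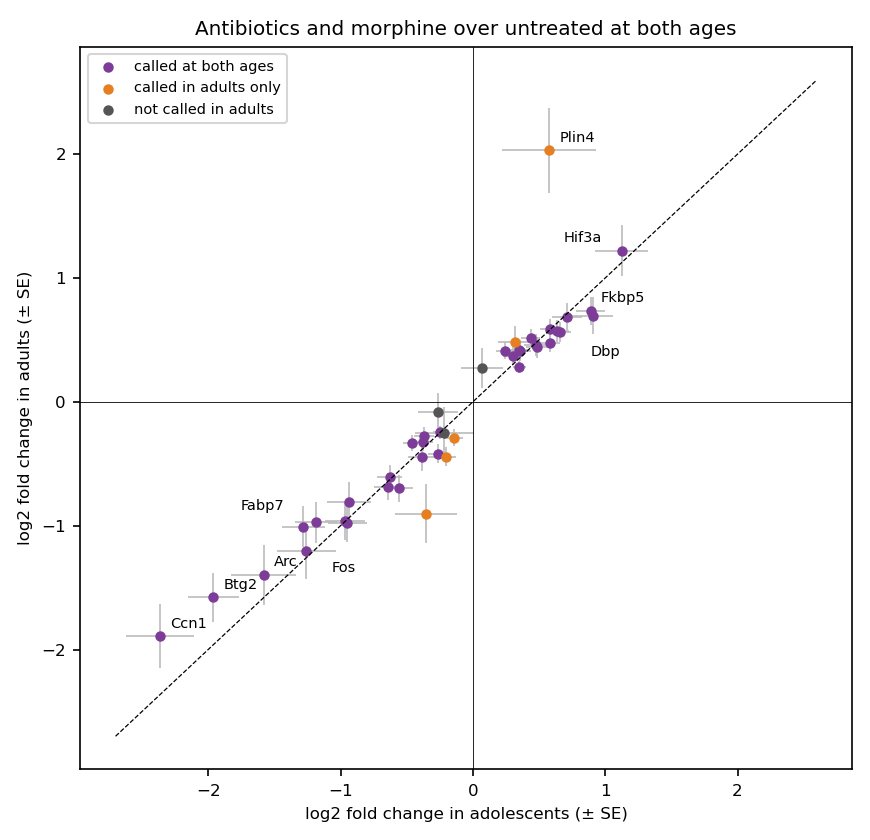
Log2 fold change of antibiotics and morphine over untreated for the 42 genes chosen by the naming rule, in adolescents (x axis) and adults (y axis), with SE bars; the dashed line marks equal change. Purple genes passed at both ages, orange ones passed in adults but not in adolescents, and grey ones did not pass in adults; Plin4, at 2.03 in adults and 0.58 in adolescents, is farthest from the line.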

How the data were processed

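RNA of 40 libraries (8 groups of 5) was extracted with the Rneasy Mini kit and prepared with the Fast RNA-seq Library Prep Kit V2, per the labels' protocols. The authors deposited 1 table of whole-number counts per gene, and the submitters' processing notes name STAR 2.7.10a, DESeq2 and mm10 with no role. No annotation or strand setting is given in the sources used here. Of 56980 gene IDs, 52073 (91.4%) were given a symbol from a GENCODE M21 table without ID versions, and 0 rows named no gene.

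From these counts, edgeR 4.0.16 in R 4.3.3 fitted 8 group means over all 40 libraries (TMM scaling, at least 10 counts and a total of 15 in filterByExpr, robust quasi-likelihood test, two-sided). Adjustment was by Benjamini-Hochberg over the 17880 genes tested, which hold 99.7 to 99.8% of the counts. CPM are TMM-scaled. SE and 95% intervals are those of the fit, on 32 residual degrees of freedom plus those of the prior. The code was tested on simulated data. The count column of combined replicate 3 carries a suffix and was matched by its title. Pairs of libraries within the groups differed by more than counting noise (chi-square per degree of freedom 2.14 to 6.57), and each was counted as 1 replicate. This check cannot show that each library came from its own mouse.

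Groups were taken from the labels, and the members and lists were chosen with earlier results of these data known. Named were the 12 higher and 12 lower called genes of smallest p at a mean of at least 1 CPM with an established symbol, up to 3 called members per list, and Oprm1, Penk, Fos, Fkbp5, Bdnf, Mbp and Dbp. Up to 4 genes per direction were named for each other comparison, and genes beyond this rule were chosen as list members or after their values were seen. Alternatives were RLE scaling, no filter, only the compared groups, a replicate block, DESeq2 1.42.0, limma-voom (limma 3.58.1) with sample weights, and leaving out each library. Lists are described by counts and medians, with no test of the list.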

Additional observations from a re-analysis of the deposited data

Results flagged for a closer look

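Of 84 groups of 5 libraries, 42 named genes in untreated adults and in adults given both, 4 had a library farther from the rest than the limit for 5 values, a share of the range of 0.71. Chance flags about 1 in 20 groups, and none of the 4 concerned combined replicate 5. The immediate early gene Ccn1 stood at 12.5 CPM in untreated replicate 5, where the other untreated libraries gave 9.28 to 10.1 CPM. Trib1, another immediate early gene, stood at 38.7 CPM in the same library against 31.7 to 32.6 CPM in the others, and Fos, Arc and Dusp1 were also highest there. The synaptic gene Nptx2 was highest in untreated replicate 4, at 83.8 CPM against 69.9 to 71.1 CPM. Rora was lowest in combined replicate 1, at 68.7 CPM against 88.0 to 92.1 CPM in the other combined libraries. Hlf, Ppp1r1b and the summed myelin markers were also lowest in that library within the combined group. Ccn1, Trib1 and Nptx2 kept their calls without any 1 library, and Rora did not.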

How the results depend on the processing

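Of the 42 named genes, 0 changed direction under any of the alternatives run. In the combined comparison of adults, 212 genes became 340 with no filter on low counts, 458 in a fit restricted to the compared groups, 370 in DESeq2 and 554 in limma-voom, with 187, 202, 200 and 212 of the 212 shared, and 116 to 254 without 1 library each. RLE scaling gave 211, of which 206 were shared. For antibiotics alone, 9 became 78, 15, 51 and 13 under the same 4 settings and 2 to 46 without 1 library each. For morphine alone, 85 became 213, 148, 146 and 251, and 30 to 153 without 1 library each. The departure from the sum, at 0, gave 15 with no filter, 1 in DESeq2, 1 in limma-voom and 0 to 1 without 1 library each. In adolescents 1240 became 521 in a fit restricted to the compared groups and 791 to 1822 without 1 library each. The age difference, at 0, gave 5 with no filter and 1 in a fit restricted to the compared groups, and 0 to 0 without 1 library each. The cause of these shifts was not tested.

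Rora lost its call with no filter (0.47 on the log2 scale) and Per3 in a fit restricted to the compared groups (0.41). DESeq2 gave an adjusted p for 39 of the 42 genes and changed none of these calls, and RLE scaling and limma-voom changed none of the 42. Replicate numbers are shared across groups in the labels, but same-numbered libraries of the adult groups did not deviate together: the correlations of their deviations for numbers 1 to 5 were 0.0134, 0.032, -0.018, -0.0592 and 0.0726, and number 5 alone correlated best with its own number. With the replicate number as a block, 228 genes were called in the combined comparison, 33 with antibiotics alone, 96 with morphine alone, 2 for the departure and 1270 in adolescents. Of the 42 named genes Rpl13a alone lost its call under the block (-0.92). At a floor of 3 counts, 0.289 to 0.335 CPM, changes in genes such as Il1b or Ttr were not detectable at this depth.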

Other observations

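Other changed genes fall outside the lists, and those below were chosen after their values were seen. Etnppl, an astrocytic enzyme gene of phosphoethanolamine breakdown, read 11.6, 17.3, 24.6, 16.7 and 18.4 CPM in untreated adults and 31.8, 32.6, 32.7, 44.7 and 39.8 CPM with both treatments. It rose 2.04-fold (edgeR adjusted p = 0.00363), where the astrocyte marker Fabp7 fell. Camkk1, a calcium-dependent kinase kinase, rose 1.26-fold, Rps6kb1, the S6 kinase, 1.26-fold, Eef2k, the kinase that brakes elongation, 1.24-fold, Foxo3, a forkhead factor, 1.27-fold and Cpeb1, a regulator of polyadenylation, 1.34-fold (adjusted p = 0.00126, 0.00278, 0.00967, 0.00418 and 0.0194).

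Beta tubulin genes Tubb2a and Tubb2b fell by 0.33 ± 0.07 and 0.56 ± 0.11 (log2, SE; adjusted p = 0.0114 and 0.00415), and their near-identical coding sequences make the split between them uncertain. Ldha, the lactate dehydrogenase subunit gene, went from 295 ± 18.6 to 239 ± 12 CPM (SD, n = 5 each) and was 1.24-fold lower (adjusted p = 0.0161). Grk5, a kinase that desensitises G protein-coupled receptors, was 1.48-fold lower, from 40.9 ± 4.07 to 27.6 ± 2.22 CPM (mean ± SD of 5 libraries each; adjusted p = 0.00278). Apold1, a vascular immediate early gene outside the list, read 7.97, 8.57, 7.92, 6.46 and 7.37 CPM untreated and 3.22, 3.52, 3.68, 4.3 and 3.85 CPM with both, a 2.06-fold fall (adjusted p = 0.00509). The neuropeptide gene Cort of cortical interneurons was 1.62-fold lower at a low level (adjusted p = 0.0224) and the lipoprotein lipase gene Lpl 1.4-fold lower (adjusted p = 0.013).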
